A study of Oryctolagus cuniculus with 6 samples.

Results

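The liver and the yolk sac release the proteins of blood plasma, and 7 genes for such proteins were followed here in rabbit blastocysts together with DAB2, a gene of the same embryonic tissue. The 7 serum protein genes were APOA1, APOA2 and APOB, which encode apolipoproteins, RBP4 and TF, which encode the carriers of retinol and iron, and FGB and FGG, which encode fibrinogen chains. All probes on the array that the names, descriptions or accessions in the files assign to the 8 genes were taken, 25 probes of 43603, where probes with a symbol covered 9712 genes in all. The 8 genes had been chosen on their values in frozen embryos among endoderm and yolk sac genes, so their frozen values and the differences between the methods that contain them are given as a description, without a test.

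In the blastocyst a layer of primitive endoderm spreads under the epiblast and along the cavity, and its descendants form the visceral and parietal endoderm of the yolk sac. Before there is a liver, visceral endoderm secretes apolipoproteins, transferrin, retinol-binding protein and fibrinogen and takes up maternal proteins and lipids by endocytosis. DAB2 is an adaptor that links receptors of the LDL receptor family, megalin among them, to clathrin, and in the mouse it is needed for the function of visceral endoderm.

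RNA came from blastocysts of New Zealand White rabbits at 6 days. Vitrified embryos had been taken through ethylene glycol and DMSO, at 20% each in the last solution, and plunged into liquid nitrogen. Frozen embryos had been taken up to 1.5 M DMSO, seeded and cooled slowly before they were plunged. Both were then moved into recipient does, from which living embryos were recovered, while control embryos were untreated and had developed in vivo, so that cryopreservation and transfer cannot be told apart. Each of 6 arrays set 1 treated extract against 1 control extract, 3 arrays for each treatment, with the treated extract in Cy5 for replicates 1 and 3 and in Cy3 for replicate 2. Vitrified and frozen arrays of 1 replicate number have the same control by their labels, so the 2 comparisons with control are not independent. The labels call the 3 extracts of a group biological replicates and give no number of embryos per extract.

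The signal of each gene rests on probes of 60 bases. The brightest probe of each gene, on which the values below rest, and the brightest of a second group of APOB probes are given here 5′ to 3′ as the array files hold them, since probe design decides which part of a transcript was read. Capitals mark bases that another probe of the same gene also covers.
APOA1 A_04_P001491: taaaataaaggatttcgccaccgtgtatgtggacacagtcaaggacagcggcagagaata
APOA2 A_04_P052772: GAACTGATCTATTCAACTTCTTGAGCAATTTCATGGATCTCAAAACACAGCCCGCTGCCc
APOB A_04_P004831: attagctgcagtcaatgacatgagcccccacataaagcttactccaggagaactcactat
APOB A_04_P012531: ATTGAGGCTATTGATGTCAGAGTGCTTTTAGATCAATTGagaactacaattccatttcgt
RBP4 A_04_P001291: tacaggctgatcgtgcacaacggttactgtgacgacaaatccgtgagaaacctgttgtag
TF A_04_P001614: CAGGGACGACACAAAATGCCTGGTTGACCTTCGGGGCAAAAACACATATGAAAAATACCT
FGB A_04_P082932: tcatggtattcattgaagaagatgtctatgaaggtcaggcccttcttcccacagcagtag
FGG A_04_P082938: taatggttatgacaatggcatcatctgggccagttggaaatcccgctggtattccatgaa
DAB2 A_04_P101418: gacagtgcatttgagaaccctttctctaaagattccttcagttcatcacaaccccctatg

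All 5 APOA2 probes have 56 bases in common, so they count as 1 measurement. They lie on the plus strand between chr13:31761810-31761869 and chr13:31761814-31761873, in a genome build that is not given in the sources used. The 5 TF probes form a chain of overlaps, and the brightest lies at chr14:27756663-27756722 on the plus strand. The 7 APOB probes form 2 groups on the minus strand of chromosome 2. Of these, 4 overlap and start between bases 6794 and 6855 of the transcript that the array was designed on, and 3 adjoin without overlap and start at bases 13451, 13511 and 13571. The brightest APOB probe lies at chr2:170081713-170081772. APOA1 was read by 1 probe at chr1:99597012-99597071, plus strand, and FGB by 1 probe at chr15:10903118-10903174, plus strand. The 2 FGG probes adjoin on the minus strand, the brightest at chr15:10936002-10936061. The RBP4 probe spans 867 genomic bases on the minus strand, chr18:41283230-41284096, and the brightest DAB2 probe spans 1491 bases on the minus strand, chr11:60406600-60408090. A span longer than the probe places these 2 across an intron by the array's own coordinates. None of the 25 probes shared a run of 30 bases with a probe of another gene.

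All 25 probes passed the filter on dim probes, and the brightest probe of each gene was well above background in all 12 channel measurements. Per array, 44.8% to 58.0% of all probes cleared that mark in Cy3 and 64.2% to 74.5% in Cy5. Values below are log2 treated over control, so 0 means no difference and -1 means 2-fold lower, first for each array and then as the limma fit, which has a term for the dye and can therefore differ from the plain mean of 3 arrays. Errors are standard errors of the fit (SE) unless SD is named. The fit estimates 1 spread for both treatments, so the SE of a frozen value also holds the scatter of the vitrified arrays. For APOA1 the SD was 0.15 over the frozen and 1.12 over the vitrified arrays, and the SE was 0.34 for both.

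In frozen embryos the signal of all 7 serum protein genes was lower than in control embryos on each of the 3 arrays. The 21 values ran from -1.52 to -0.52, and the median of the 7 fitted values was -1.0, where that of all 30761 tested probes was 0.01. In vitrified embryos the median was -0.09, with 5 of the 7 genes below 0, and it hid a split between the arrays. Vitrified replicate 1 had all 7 genes below 0, between -1.45 and -0.35, whereas replicates 2 and 3 had 1 of 14 values below 0 and ran from -0.46 to 0.71. DAB2 stood apart, above 0 on all 6 arrays.

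**Figure D1:**
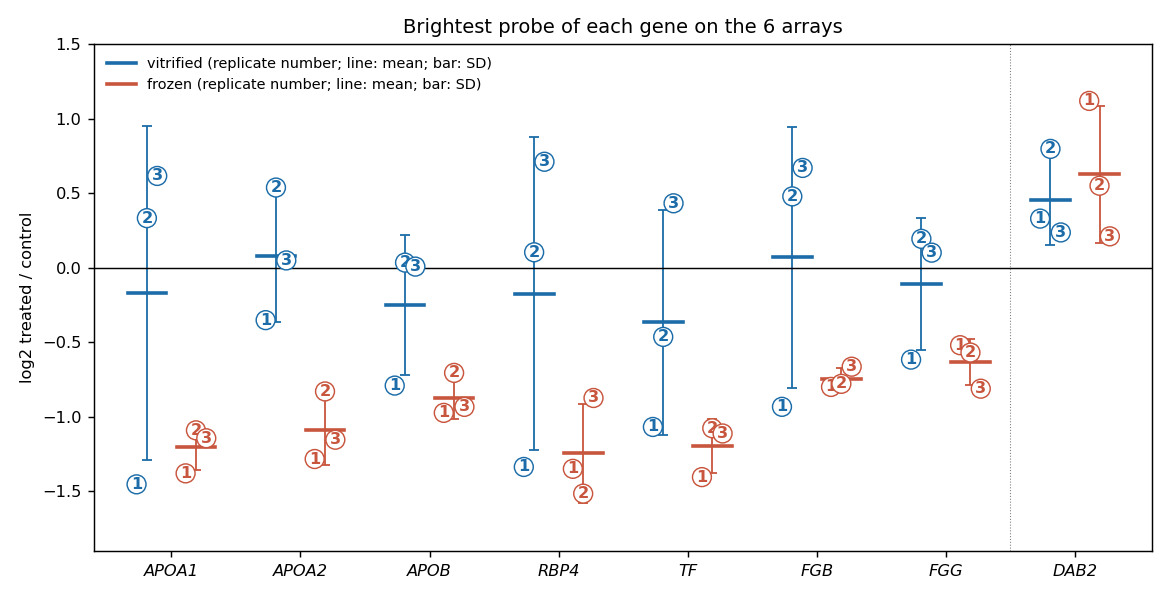
Log2 treated over control (y axis) of the brightest probe of each of the 8 genes (x axis). Each circled number is the array of that replicate, vitrified in blue and frozen in red, thick lines are means and bars are SD over 3 arrays. The frozen values of the 7 serum protein genes lie between -1.52 and -0.52, vitrified replicate 1 lies within or below the frozen range for 5 of the 7 (not APOA2 and TF), and DAB2 lies above 0 throughout.

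Having all 3 frozen arrays below 0 was shared by 14.7% of all tested probes. Since this contrast chose the genes, their count of 7 of 7 carries no weight beside that share. The same holds for the limma calls. Of the 7 serum protein genes 1, APOA2, was called lower in frozen embryos at an adjusted p under 0.05, where 0.0975% of all tested probes were, and DAB2 was not called higher, where 0.0878% were. These counts hung on single arrays. Without vitrified replicate 1, 7 of the 8 genes were called in frozen embryos, and without any other array 0 were called. Calls over all tested probes in frozen embryos moved as well, from 57 to 502 without vitrified replicate 1 and to between 0 and 4 without each of the others. In vitrified embryos limma called 0 of the 8 genes, where 0.0195% of all tested probes were called and 17.4% had an unadjusted p under 0.05. Of the 8 genes DAB2 alone had an unadjusted p under 0.05 there.

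The bulk extracts hold whole embryos, so the cells that gave these signals are not known. Fewer such cells and less RNA per cell cannot be told apart.

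APOA1 encodes the main protein of high-density lipoprotein. Its log2 ratio was -1.38, -1.09 and -1.14 on frozen replicates 1, 2 and 3. On vitrified replicates 1, 2 and 3 it was -1.45, 0.33 and 0.61. The first vitrified array thus lay below every frozen array and the other two above 0. The frozen fit was -1.13 ± 0.34, a 2.19-fold lower signal, and the plain frozen mean was -1.21 ± 0.15 (SD, n = 3). The vitrified fit was -0.09 ± 0.34 (limma adjusted p = 0.912), with a 95% interval from -0.88 to 0.70 that spans changes of either sign. Without vitrified replicate 1 it was 0.47, and without replicate 3 it was -0.56.

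APOA2, the second protein of high-density lipoprotein, separated the methods most cleanly. It stood at -1.28, -0.83 and -1.15 on the frozen arrays. The vitrified arrays gave -0.35, 0.54 and 0.05, all above every frozen value. The frozen fit was -1.0 ± 0.12 and the vitrified fit 0.17 ± 0.12 (limma adjusted p = 0.484), and vitrified minus frozen was 1.17 ± 0.16, a 2.25-fold difference. The other 4 probes, which read nearly the same bases, had frozen fits from -0.95 to -0.92 and all passed as well.

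APOB is the large structural protein of chylomicrons and very low density lipoprotein, which visceral endoderm needs to export lipid. Its brightest probe stood at -0.97, -0.71 and -0.93 on the frozen arrays and at -0.79, 0.03 and 0.01 on the vitrified arrays. Vitrified replicate 1 lay within the frozen range, so the groups overlapped. The fits were -0.82 ± 0.15 for frozen and -0.19 ± 0.15 for vitrified embryos (limma adjusted p = 0.545).

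The 2 groups of APOB probes did not give the same picture. The 3 probes nearer the end of the transcript had frozen fits from -0.88 to -0.69, and vitrified minus frozen ran from 0.40 to 0.67. The 4 overlapping probes near its middle had smaller frozen values, from -0.56 to -0.37, with vitrified values from -0.48 to -0.30 and differences of 0.02 to 0.24. These 4 were closer to background, being well above it in 7 to 10 of the 12 channel measurements, against 11 or 12 for the others. A_04_P012531, the brightest of the 4 by its mean over the 6 arrays, had 1 array unlike the rest. Its log2 levels on frozen replicate 3 were 8.50 in the control and 8.16 in the treated channel, against 6.19 to 7.64 on the other arrays. Whether dimness accounts for the smaller difference was not tested.

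RBP4 carries retinol from cells that store or take it up. It had the lowest frozen fit of the 8 genes, at -1.25 ± 0.35 or 2.37-fold lower, from array values of -1.35, -1.52 and -0.87. On the vitrified arrays it stood at -1.34, 0.10 and 0.71, a spread of 1.05 (SD, n = 3) around a mean of -0.17. The vitrified fit was -0.17 ± 0.35 (limma adjusted p = 0.833). It was 0.41 without replicate 1.

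TF, the iron carrier transferrin, was at -1.41, -1.08 and -1.11 on the frozen arrays. The vitrified values were -1.07, -0.46 and 0.43, the first of which lay just above the highest frozen value. It was the only serum protein gene below 0 on vitrified replicate 2. All 5 probes were close to each other, with frozen fits from -1.27 to -1.19 and vitrified fits from -0.39 to -0.32. For the brightest, the frozen fit was -1.20 ± 0.25, a 2.29-fold lower signal, and the vitrified fit was -0.36 ± 0.25 (limma adjusted p = 0.490). The vitrified fit ran from -0.77 without replicate 3 to -0.02 without replicate 1.

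**Figure D2:**
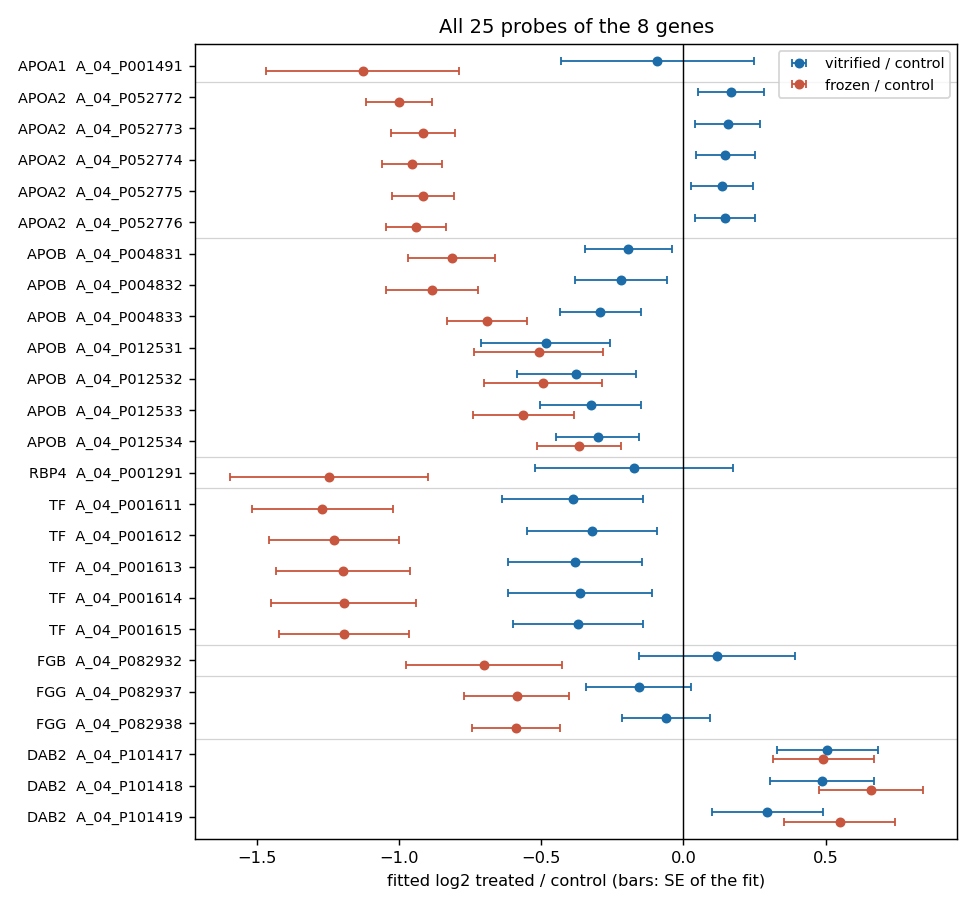
Fitted log2 treated over control (x axis) with SE of the fit for each of the 25 probes (rows, grouped by gene), vitrified in blue and frozen in red. The 5 APOA2 and 5 TF probes keep both groups apart, the 4 APOB probes with names from A_04_P012531 to A_04_P012534 do not, and the DAB2 probes lie above 0 in both groups.

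FGB and FGG encode the beta and gamma chains that join with the alpha chain into fibrinogen, the clotting protein. FGB stood at -0.80, -0.78 and -0.66 in frozen embryos and at -0.93, 0.48 and 0.67 in vitrified embryos. Its first vitrified array was below all frozen arrays and the other two were above 0. The fits were -0.70 ± 0.27 and 0.12 ± 0.27 (limma adjusted p = 0.857 for vitrified embryos).

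FGG stood at -0.52, -0.57 and -0.81 in frozen and at -0.62, 0.19 and 0.10 in vitrified embryos, with fits of -0.59 ± 0.15 and -0.06 ± 0.15 (limma adjusted p = 0.866 for vitrified embryos). Its second probe gave -0.59 in frozen and -0.16 in vitrified embryos. The single probe for the alpha chain gene FGA was well above background in 0 of 12 channel measurements, so the third chain had no usable value.

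The ranks of the frozen fits among 8138 named genes, counted from the lowest, were 7 for RBP4, 12 for TF, 15 for APOA1, 29 for APOA2, 46 for APOB, 70 for FGB and 138 for FGG. DAB2 had rank 8098. In vitrified embryos the lowest rank among them was 340, for TF.

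DAB2 was at 1.12, 0.55 and 0.21 on the frozen arrays and at 0.33, 0.80 and 0.24 on the vitrified arrays. All 6 values were above 0 and the groups overlapped. The vitrified fit was 0.49 ± 0.18, a 1.40-fold higher signal with a 95% interval from 0.06 to 0.91, and did not pass over all probes (limma adjusted p = 0.244). All 3 vitrified arrays were above 0 for 20.4% of all tested probes. The vitrified fit was 0.22 without vitrified replicate 2. The frozen fit was 0.66 ± 0.18, or 1.58-fold higher, and ran from 0.38 without frozen replicate 1 to 0.92 without frozen replicate 2. All 3 frozen arrays were above 0 for 15.7% of all tested probes. Vitrified minus frozen was -0.17 ± 0.25, and it was 0.15 without frozen replicate 1, the array with the highest value.

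The other DAB2 probes read neighbouring parts of the transcript and gave 0.30 and 0.51 in vitrified embryos and 0.55 and 0.49 in frozen embryos. One of them was at -0.02 on frozen replicate 3, the single DAB2 value below 0 among 3 probes and 6 arrays.

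The signals behind the ratios were then taken channel by channel. For APOA1 the treated channel was at 9.28, 9.05 and 8.49 (log2 level) on frozen replicates 1, 2 and 3. It was at 9.38, 10.71 and 10.96 on the vitrified arrays, and the control channel ran from 9.63 to 10.83. For all 7 serum protein genes the treated channel of vitrified replicate 1 lay below that of both other vitrified arrays. For all 7 the treated channels of the frozen arrays lay below those of vitrified replicates 2 and 3. Against the frozen arrays, the treated channel of vitrified replicate 1 was the higher for APOA1, APOA2, RBP4 and TF, 4 of the 7. These levels were normalised with both channels of an array, so they are not independent of the control. In background-subtracted treated signals before normalisation, vitrified replicate 1 was above vitrified replicate 3 for APOA2 (1091 and 758) and TF (8672 and 7586). The same held for APOB and FGG, while APOA1 (1332 and 2132), RBP4 and FGB went the other way. Signals before normalisation are not on 1 scale between arrays, so their order does not give the order of expression. DAB2 was at 2523 and 1180 on these 2 arrays, with normalised levels of 10.27 and 10.14.

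The controls themselves differed. RBP4 was at 11.77 and 11.55 in the control channel of the 2 arrays of replicate 1, and at 10.78 and 10.36 on those of replicate 3. TF was at 12.99 and 12.92 in control replicate 1, at 13.09 and 12.97 in control replicate 2 and at 12.30 and 12.17 in control replicate 3. The 2 readings of a control extract thus lay within 0.13 of each other for TF, and the third extract lay apart from the others. Other genes repeated less well. The 2 readings differed by 0.71 for APOA1 in control replicate 3, by 0.64 for APOB and 0.54 for APOA2 in control replicate 2, against a median absolute gap over all tested probes of 0.14 to 0.22. In the last 2 cases the control was the lower on the vitrified array, and for APOA1 it was the higher there.

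**Figure D3:**
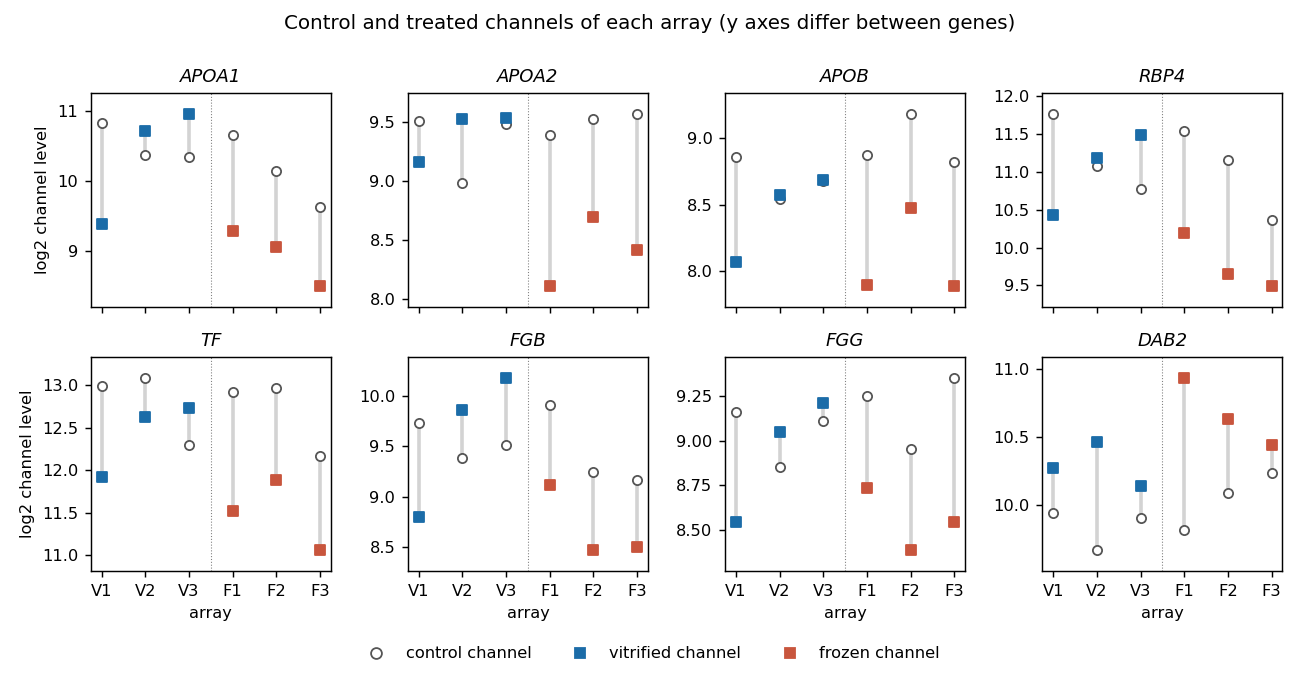
Log2 channel level (y axis, its own scale for each gene) in the control channel (open circles) and the treated channel (squares) of the 6 arrays, where V and F stand for vitrified and frozen and the number is the replicate. The treated channels of V2 and V3 lie near or above their controls in 6 of the 7 serum protein genes, while those of V1 and all frozen arrays lie below.

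Vitrified and frozen embryos were also set against each other within replicate numbers, which by the labels cancels the shared control. Vitrified minus frozen of the 7 genes was between -0.13 and 0.93 for replicate 1, between 0.61 and 1.62 for replicate 2 and between 0.91 and 1.76 for replicate 3. For replicate 1, APOA2 at 0.93 and TF at 0.34 were the largest. For APOA1, RBP4, FGB and FGG the difference of replicate 1 was within 0.13 of 0. The median of the 7 fitted differences was 0.83, against 0.02 for all tested probes. It was 0.42 without vitrified replicate 3 and 1.31 without vitrified replicate 1.

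Every frozen array lay below every vitrified array for 2 of the 7 genes, APOA2 and TF, where 5.75% of all tested probes had that order. For TF the nearest values were -1.08 and -1.07. Limma called 0 of the 8 genes between the methods and 0% of all tested probes, with 7.54% at an unadjusted p under 0.05 and a smallest adjusted p of 0.224. The arrays lay on 2 slides. Slide 1 held vitrified replicate 1 with frozen replicates 1 and 2, and slide 2 held vitrified replicates 2 and 3 with frozen replicate 3. Vitrified minus frozen of the median serum protein gene was 0.12 within slide 1 and 1.25 within slide 2. Frozen arrays were low on both slides, at medians of -1.28 and -0.83 on slide 1 and of -0.93 on slide 2. The vitrified arrays were low on slide 1 alone, at -0.93, and stood at 0.19 and 0.43 on slide 2. With 1 vitrified array on slide 1, slide and embryo cannot be told apart there.

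Other genes of the same pathways were read from lists that were drawn up with earlier results of these data known, each gene by its brightest probe. Among other secreted serum proteins, 20 of 43 genes were tested, and their median was 0.01 in vitrified and -0.02 in frozen embryos, with 0 called in either. Of the 20 tested genes, 7 were well above background in all 12 channel measurements. Whether dimness accounts for the medians near 0 was not tested. For 13 further genes of the list the probes were on the array and did not pass the filter. Among them were the single probe for albumin, ALB, at 0 of 12 channel measurements, and 5 for TTR, at 2 of 12 at most. Lowest in frozen embryos was APOM, a lipocalin carried on high-density lipoprotein, at -1.12 ± 0.29, followed by AMBP, the precursor of a plasma lipocalin, at -0.64 ± 0.15. SHBG was at -0.32, from 0.07, -0.97 and 0.43 on frozen replicates 1, 2 and 3, and was well above background in 7 of 12 channel measurements. In vitrified embryos the smallest p values belonged to HP, haptoglobin, at 1.09 ± 0.26, SERPIND1 at -0.28 and AMBP at -0.42 (limma adjusted p = 0.167, 0.217 and 0.224). The HP value came from 1 array, with 0.30, 2.51 and -0.41 on vitrified replicates 1, 2 and 3.

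Of the machinery that loads and exports lipid, 11 of 18 genes were tested and 0 were called in either group. MTTP, which loads lipid onto APOB, was at -0.43 ± 0.17 in frozen and -0.33 ± 0.17 in vitrified embryos. The fatty acid carrier FABP1 was at -0.54 and -0.42, and the cholesterol exporter ABCA1 at -0.46 and -0.14. CETP, a plasma lipid transfer protein, was at 0.43 in vitrified embryos and LCAT, which esterifies cholesterol in plasma, at 0.20. The arrays disagreed for CETP, with 1.30, -0.17 and 0.71 on vitrified replicates 1, 2 and 3. Its probe was very bright, with log2 control levels from 15.91 to 16.98. The list's median was 0.00 in vitrified and -0.08 in frozen embryos.

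DAB2 works with endocytic receptors, of which 16 of 28 listed genes were tested and 0 were called. Their median was 0.10 in vitrified and 0.06 in frozen embryos. TFRC, the receptor that takes up the TF protein with its iron, was at -0.63 ± 0.14 in vitrified (limma adjusted p = 0.152) and -0.38 ± 0.14 in frozen embryos. The clathrin light chain CLTB was at 0.76 and the adaptor NUMB at 0.63 in vitrified embryos. In frozen embryos the adaptor subunit AP2B1 was at 0.32 and the recycling protein RAB11A at -0.27. LRP2, or megalin, the receptor that DAB2 links to clathrin, was at 0.26 ± 0.12 in vitrified and 0.19 ± 0.12 in frozen embryos and is named here after its values were seen.

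In iron and retinol handling 15 of 21 genes were tested and 0 were called. The ferritin light chain FTL was at 0.61 ± 0.12, CRABP2, which binds retinoic acid in cells, at 0.45 and STEAP3, which reduces the iron that TF delivers, at 0.60 in vitrified embryos. In frozen embryos the retinal reductase DHRS3 was at -0.63 ± 0.14, CYP26A1, which degrades retinoic acid, at -0.46 and STEAP3 at 0.71 ± 0.20. The medians were 0.08 and -0.01.

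Endoderm itself was checked on 2 lists. Of 22 transcription factors, 7 had named and tested probes and 0 were called. GATA4 was at -0.23 ± 0.12 and FOXA1 at -0.23 ± 0.13 in frozen embryos. GATA4 was at 0.24, HHEX at -0.15 and HNF4G at -0.10 in vitrified embryos. GATA4 was well above background in all 12 channel measurements, while HHEX was in 3. No probe was named for GATA6, SOX17 or HNF4A here.

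Of 18 signals and surface and basement membrane proteins of endoderm, 11 were tested. In frozen embryos 10 of the 11 were below 0 with a median of -0.44, and 8 were below 0 on all 3 arrays. NID1, which links laminin to collagen IV in basement membrane, fell by 1.23 ± 0.15 on 1 of its 2 probes (limma adjusted p = 0.0427), and the other was at -0.56. The NID1 call was lost without each array in turn other than vitrified replicate 1, with adjusted p values up to 1.00. It was also lost with a normexp offset of 0, the deposited ratio, no dye term and slide as a covariate (limma adjusted p from 0.0624 to 0.200). BMP2, a signal of visceral endoderm, was at -0.95 ± 0.20 and CER1, an inhibitor of Nodal and BMP signals, at -0.39 ± 0.10. In vitrified embryos the median was 0.02, and EPCAM was at -0.51, NID1 at -0.52 and CXCR4 at -0.27 with 0 called.

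**Figure D4:**
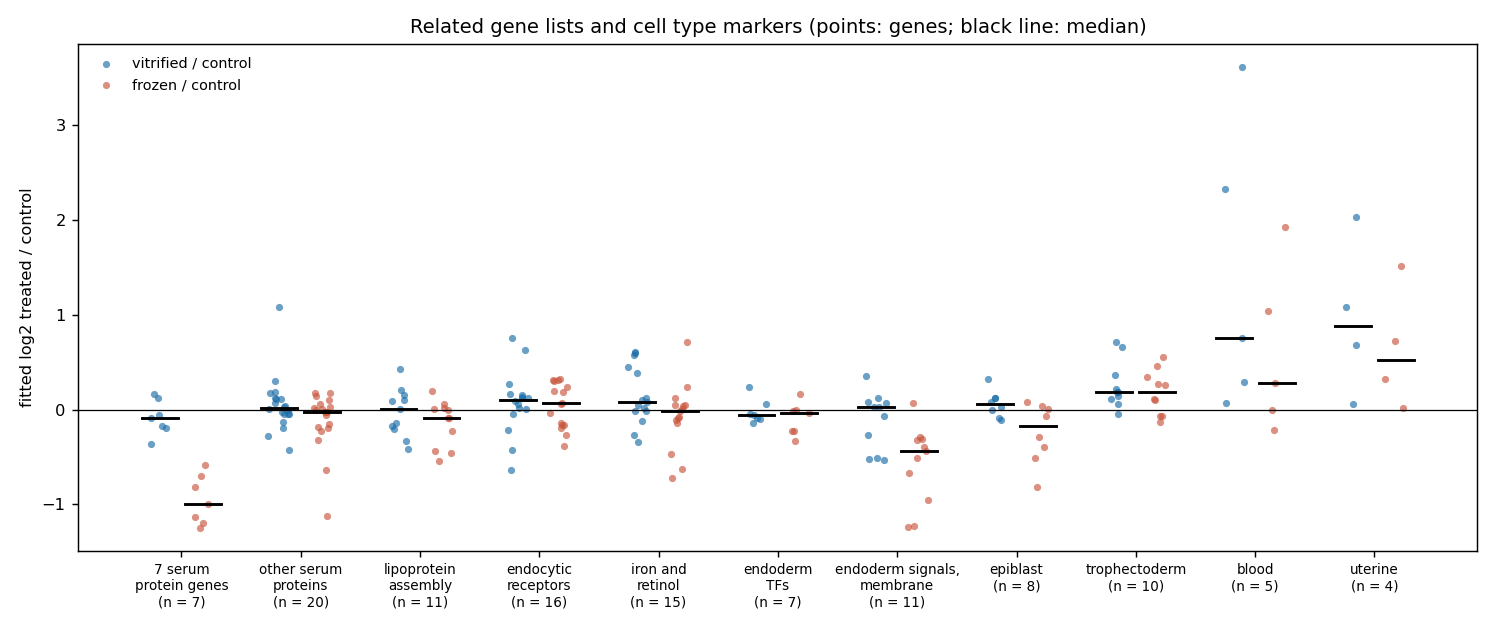
Fitted log2 treated over control (y axis) of each tested gene of the 7 serum protein genes, 6 related lists and 4 marker lists (x axis, with the number of genes), vitrified in blue and frozen in red, with black lines at the medians. Endoderm signals and membrane proteins have a frozen median of -0.44, and single blood and uterine markers exceed 1. Other serum proteins have medians near 0, and 7 of these 20 genes were well above background in all 12 channel measurements.

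Markers of other cells were set beside these values. The epiblast marker POU5F1 and the trophectoderm keratins KRT8 and KRT19 were well above background in all 12 channel measurements, as were 6 of the 8 tested epiblast markers and 8 of the 10 tested trophectoderm markers. In frozen embryos epiblast markers had a median of -0.18, with 5 of 8 below 0, and trophectoderm markers one of 0.18, with 7 of 10 above 0. POU5F1 was at -0.94, -0.88 and -0.56 on the frozen arrays, a fit of -0.82 ± 0.22, and at -0.65, -0.17 and 0.63 on the vitrified arrays. The epiblast marker OTX2 was at -0.51 and the trophectoderm marker GATA2 at 0.56 in frozen embryos. In vitrified embryos OTX2 was at -0.11 and GATA2 at 0.72. These 3 are named after their values were seen, and their part in the serum protein values was not tested. In vitrified embryos the medians were 0.05 and 0.19. None of these markers was called.

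Blood markers were above 0 for 5 of 5 tested genes in vitrified and 3 of 5 in frozen embryos, with 0 called. Their summed linear level was 3097 to 11884 in control channels, 15441 to 163470 in vitrified and 4645 to 40818 in frozen channels. HBA, alpha globin, stood at 2.27, 2.43 and 2.52 on vitrified replicates 1, 2 and 3 and at 2.33, 0.47 and 0.53 on frozen replicates 1, 2 and 3. HBB2, a beta globin, was at 1.78, 4.61 and 4.29 and at 3.60, 1.25 and 0.76. The leukocyte marker PTPRC was well above background in 0 of 12, while the blood markers CD14 and CD68 were in 11 and 10. CD14 was at 0.29 in vitrified and -0.002 in frozen embryos, and CD68 at 0.07 and -0.22. All of the HBA and HBB2 values were above 0. HBB2 was lower on vitrified replicate 1 than on the other vitrified arrays, and both globins were lower on frozen replicates 2 and 3 than on frozen replicate 1. Uterine markers were above 0 for 4 of 4 tested genes in both groups, with summed levels of 1504 to 3473 in control, 4137 to 7169 in vitrified and 1573 to 4327 in frozen channels, and with ESR1 at 0 of 12. Of these, PGR was close to 0, at 0.06 in vitrified and 0.015 in frozen embryos. It was at -0.14, -0.02 and 0.24 on the frozen arrays and well above background in 6 of 12 channel measurements. SCGB1A1, uteroglobin, was at 2.53, 2.52 and 0.55 in vitrified and 1.25, 2.00 and 0.78 in frozen embryos. The part of blood and uterine material in the serum protein values was not tested.

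The genes whose log2 ratios over the 6 arrays were most like the mean of the 7 serum protein genes were sought among 1845 named genes with an SD of at least 0.3. They were DNAJB7, a heat shock cochaperone family member (Pearson r = 0.992, n = 6 arrays), ACSL5, which activates long-chain fatty acids (0.989), APOM (0.984), SLC3A1, a subunit of an amino acid transporter (0.981), and PTGS2, which makes prostaglandins (0.979). SLC3A1 was at -1.92, -1.81 and -1.50 on the frozen arrays and -1.74, -0.24 and 0.58 on the vitrified arrays. PTGS2 was at -1.26, -0.73 and -0.96 and at -1.47, 1.14 and 1.35. All 5 were below 0 on vitrified replicate 1 as on the frozen arrays. Most like DAB2 were NQO1 (0.963), FLNA (0.895), RNF170 (0.890), RIMKLB (0.887) and SERINC3 (0.873), each with its highest value on frozen replicate 1. These values of r describe arrays that share control extracts, and the best of 1845 comparisons are high by choice.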

How the data were processed

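Blastocyst RNA was hybridised to 6 two-colour Agilent arrays. The deposited intensity values are, per the file headers, mean signals of each spot in both dyes beside a median of the background around it, and they had not been normalised. The submitters' processing notes name Agilent Feature Extraction 10.10.1.1. The deposited log10 ratio, red over green per the file headers, is the scanner software's own processed ratio and served as an alternative.

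Starting from the intensities, limma 3.58.1 under R 4.3.3 corrected background by normexp with an offset of 50 and normalised each array by loess, giving control spots no weight. Spots of a probe were averaged. A probe was tested if well above background in 3 or more of 12 channel measurements, which 30761 of 43603 were. Log2 treated over control was fitted over the 6 arrays with 1 coefficient per treatment and a dye term, leaving 3 degrees of freedom. Adjusted p stands for the Benjamini-Hochberg value across every tested probe, and 0.05 was the threshold. Channel levels are log2 values after the loess within arrays and Aquantile normalisation between arrays. The files and a RefSeq gene table of assembly mOryCun1.1 gave a symbol to 21376 probes, a gene number alone to 1318, several genes to 213 and no match to 20696. The fit was tested on simulated data. The number of arrays limits the precision. The p values measure the spread of ratios between arrays, in which treated extract, control extract and array error are mixed. These p values take the arrays as independent, though by the labels each control extract served on 2 arrays.

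The 8 genes and the lists were chosen with earlier results of these data known. List genes are named if called, filled up to 3 per list and comparison by the smallest p, and likeness names 5 genes per profile. One list gene named by this rule is left out of the text. Same-numbered arrays deviated from their group means with a correlation of 0.02 for replicate 1, 0.60 for replicate 2 and 0.17 for replicate 3. No dye term was taken out of these deviations, and both replicate 2 arrays were dye-swapped, so dye and a shared control cannot be told apart in the 0.60. With the dye term, the fitted correlation within replicate numbers was -0.10. The number was not a block in the reported fit. Alternatives were other background, normalisation, filter, dye, slide, block, prior, weight, channel and probe choices and leaving out each array. Promoters and proteins were not analysed here.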

Additional observations from a re-analysis of the deposited data

How the results depend on the processing

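Of 464 refits of single genes under the alternatives, 414 kept direction and side of the threshold, 27 passed it newly, 10 lost it and 13 changed sign. In frozen embryos 1 of the 8 genes was called. The count was 0 with a normexp offset of 0, the deposited log10 ratio, no dye term, slide as a covariate or the mean over a gene's probes, 7 in the separate-channel fit and 8 with array weights. Over all probes those 2 fits called 842 and 5572 in frozen embryos, against 57 in the reported fit. The count of the 8 genes ranged from 0 to 7 when single arrays were left out. In vitrified embryos it was 0, and 1 with array weights, where 3576 of all probes were called. Between the methods it was 0, with 6 under array weights and 1 in the separate-channel fit, where 1137 and 86 of all probes were called. Array weights gave 2.85 to each dye-swapped array and 0.36 to 1.18 to the others, and the separate-channel fit counts the control channels as independent. The median of the 7 genes ran from -1.23 to -0.87 in frozen embryos, from -0.38 to 0.29, with either sign, in vitrified embryos and from 0.42 to 1.31 between the methods. With array weights, vitrified values changed sign to 0.13 for APOA1, 0.11 for RBP4 and 0.035 for FGG, and the DAB2 difference between methods to 0.12. APOA1 was at 0.012 in the separate-channel fit and FGB at -0.018 with slide as a covariate. The cause was not tested. Leaving out single arrays moved vitrified APOA1 from -0.56 to 0.47, APOB from -0.38 to 0.020, RBP4 from -0.62 to 0.41, FGB from -0.23 to 0.57 and FGG from -0.21 to 0.15, lowest without vitrified replicate 3 and highest without replicate 1. The DAB2 difference ran from -0.38 to 0.15. With a random replicate block 1 gene was called in frozen and 0 in vitrified embryos, and with paired differences 0 between the methods, so the replicate block changed no call of the 8 genes.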
